A study of Arabidopsis thaliana with 42 samples.

Results

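In Arabidopsis thaliana leaves infected with the bacterium Pseudomonas syringae pv. maculicola ES4326 (Pma), 306 of 24843 loci were strongly induced in wild type and lower in infected leaves of both sid2, a mutant of ICS1, and chp60g sard1, a mutant of CBP60g and SARD1. The members were selected on measured values. For each group, counts scaled to 1000000 per library (CPM) plus 1 were put on the log2 scale and averaged over 3 libraries. A member had a wild type Pma level at least 2 log2 units above wild type mock, and at least 1 log2 unit above each of sid2 Pma and chp60g sard1 Pma. Of all loci, 2341 met the induction threshold. Of these, 322 were lower in chp60g sard1 alone, 219 in sid2 alone and 1494 in neither. The reference annotation gave a symbol to 144 members and a locus name alone to 162. Being lower in both mutants is not the same as needing both regulators: 200 members kept an induction of at least 1 log2 unit in sid2, 156 kept it in chp60g sard1 and 133 kept it in both, while 83 fell short of it in both.

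The study infiltrated leaves 6 to 8 of 30-day-old plants, grown at 22 °C and 75% relative humidity with 12 h of light, and collected them 24 h later. Mock leaves received 5 mM magnesium sulfate and infected leaves received Pma at an optical density (600 nm) of 0.0002. The 7 genotypes were wild type, sid2, chp60g sard1 (spelled so in the labels and read here as cbp60g sard1), cbp60a, the triple mutant cbp60a cbp60g sard1, cml46 cml47 and wrky70, where the last pair lack calmodulin-like proteins and the transcription factor WRKY70. Each of 3 independent experiments held 1 sample, made of 2 leaves, for each of the 14 groups, so n = 3 throughout. Which alleles the lines carry is not stated in the labels. Reads came from the 3′ ends of transcripts (Smart-3SEQ), so a count in a mutated gene does not test its allele.

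Salicylic acid is the hormone that carries much of Arabidopsis resistance to biotrophic bacteria. ICS1 makes isochorismate, the precursor of most pathogen-induced salicylic acid, and the related transcription factors CBP60g and SARD1 bind and activate ICS1 and many other defence genes. The hormone is read by NPR receptors, which act with TGA factors on output genes such as PR1, and part of its output returns to the genes of its own synthesis. CBP60a belongs to the same protein family as CBP60g and SARD1 and is known as a negative regulator of this immunity.

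The 250 bases before the annotated start are shown for 5 members (RefSeq sequence of TAIR10.1, each 5′ to 3′ on the gene's strand), picked from the genes of the contrasts described further on. SARD1 (chr1:27749249-27749498, minus strand) and ICS1 (chr1:28070045-28070294, plus strand) are members that are themselves mutated in lines used by the rule. ARD3 (chr2:11233389-11233638, minus strand) had the largest loss in sid2. WRKY70 (chr3:20910624-20910873, minus strand), a member mutated in wrky70, and MLO12 (chr2:16359944-16360193, minus strand) stand for the transcription factors and for the MLO membrane proteins. Capitals mark TTGACC or TTGACT (the W box, read by WRKY factors), TGACG (read by TGA factors), GAAATTTGG (a sequence that CBP60g and SARD1 bind in vitro) and ACGCGT, on either strand.
SARD1: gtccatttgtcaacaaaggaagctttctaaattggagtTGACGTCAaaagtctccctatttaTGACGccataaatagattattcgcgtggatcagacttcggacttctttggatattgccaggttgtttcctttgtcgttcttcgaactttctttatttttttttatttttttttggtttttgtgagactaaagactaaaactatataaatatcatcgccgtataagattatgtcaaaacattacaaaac
ARD3: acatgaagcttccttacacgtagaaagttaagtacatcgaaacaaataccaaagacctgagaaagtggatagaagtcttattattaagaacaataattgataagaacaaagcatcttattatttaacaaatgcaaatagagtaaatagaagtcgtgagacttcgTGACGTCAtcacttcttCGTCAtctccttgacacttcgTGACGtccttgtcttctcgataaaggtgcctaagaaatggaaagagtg
WRKY70: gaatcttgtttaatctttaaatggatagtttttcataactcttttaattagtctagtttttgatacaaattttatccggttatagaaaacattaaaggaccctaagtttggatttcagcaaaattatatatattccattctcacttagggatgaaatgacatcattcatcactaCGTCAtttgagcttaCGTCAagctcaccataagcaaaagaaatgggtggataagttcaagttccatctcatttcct
MLO12: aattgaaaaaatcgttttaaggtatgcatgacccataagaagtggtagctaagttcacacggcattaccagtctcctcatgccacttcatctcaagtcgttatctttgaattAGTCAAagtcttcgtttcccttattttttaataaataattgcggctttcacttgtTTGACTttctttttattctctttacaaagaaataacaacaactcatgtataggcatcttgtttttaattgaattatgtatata
ICS1: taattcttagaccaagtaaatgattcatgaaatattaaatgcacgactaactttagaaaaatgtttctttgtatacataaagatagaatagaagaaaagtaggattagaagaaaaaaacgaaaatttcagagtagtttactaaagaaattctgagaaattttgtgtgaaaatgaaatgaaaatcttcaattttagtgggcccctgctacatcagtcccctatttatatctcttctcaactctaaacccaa
SARD1 held 3 TGACG matches, 212, 209 and 188 bases before its start, and ARD3 held 4, at 86, 83, 69 and 48 bases. In both genes the 2 farthest matches lie on opposite strands and overlap. WRKY70 held 2 TGACG matches, and MLO12 held 2 TTGACT matches. The ICS1 window held none of these letters, which says nothing of sites elsewhere. Windows of further members were scanned and are not shown. Those of DMR6, LAC7, DOX1, UGT76B1, NIMIN1, WRKY38 and PAD4 also held none, and those of GRXS13, BG3 and CYP71B9 held 1 TGACG match each. The 5 shown are therefore not typical of the windows scanned.

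W box letters were in the 250-base windows of 136 of 306 members, or 44.4%, against 28.5% of the windows of all 24691 protein-coding loci of the table. TGACG was in 28.8% of member windows and 18.9% of all windows. Among induced genes outside the set, the W box share was 36.3% for those lower in chp60g sard1 alone, 47.9% for those lower in sid2 alone and 36% for those lower in neither. The TGACG share was 22.7%, 21.9% and 21% in the same order. CACGTG, the G box, went the other way, at 2.94% of member windows and 6.88% of all windows. GAAATTTGG was in 3 member windows (0.98%, against 0.64% of all windows), and ACGCGT in 6 (1.96%, against 1.72%). The W box letters and TGACG share 4 letters, but on 1 strand a run of letters matches only one of them. A match is a run of letters and not a shown binding site.

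The libraries held 919335 to 2691069 counts, with a median of 1588053.5. Among the targeted genes, ICS1 and SARD1 are members, so the rule required their lower levels in these mutants and the values do not check the labels. ICS1 was 0.744, 2.9 and 1.9 CPM in sid2 Pma and 473, 542 and 842 CPM in wild type Pma, in experiments 1, 2 and 3. SARD1 was 9.47, 21.4 and 2.37 CPM in chp60g sard1 Pma and 308, 254 and 302 CPM in wild type Pma. CBP60G, which is not a member, had a mean level of 294.6 CPM in wild type Pma, 38.94 CPM in chp60g sard1 Pma and 186.0 CPM in sid2 Pma. Its loss in sid2 was 0.68 log2 units, short of the threshold of 1. Of other targeted genes outside the set, CML46 had a mean of 0.5831 CPM in cml46 cml47 Pma and 382.1 CPM in wild type Pma. CML47 kept 278.8 CPM in cml46 cml47 Pma beside 786.1 CPM in wild type Pma. CBP60A kept 23.17 CPM in cbp60a Pma beside 53.14 CPM in wild type Pma. Among cell type markers in Pma, the summed level of 5 epidermis genes was 51.92 to 95.91 CPM in wild type, 29.7 to 59.3 CPM in cbp60a, 182.3 to 490.4 CPM in chp60g sard1, 40.03 to 502.8 CPM in the triple mutant and 57.27 to 284.4 CPM in sid2. CER6 and LTP1 carried most of the higher sums, while the median of ATML1 was 5.497 CPM in wild type and 3.884 CPM in chp60g sard1, and PDF1 was at 0 in all libraries of both. The sum of 5 guard cell genes was 129.6 to 174.6 CPM in wild type, 132.2 to 164.4 CPM in cbp60a, 66.87 to 82.55 CPM in chp60g sard1, 65.96 to 102.7 CPM in the triple mutant and 110.3 to 154.5 CPM in sid2. It was mostly KAT1, with a median of 135 CPM in wild type and 48.75 CPM in chp60g sard1, whereas the medians of FAMA, at 12.32 and 13.73 CPM, and of SLAC1, at 1.918 and 4.143 CPM, went the other way. The sum of 5 mesophyll genes was 2392 to 2676 CPM in wild type, 1543 to 2268 CPM in cbp60a, 3923 to 7161 CPM in chp60g sard1, 3913 to 9410 CPM in the triple mutant and 2666 to 6093 CPM in sid2, so cbp60a and the triple mutant, compared further on, did not overlap. No marker is a member, and the part of these shifts in the members' levels was not tested. In whole leaves, fewer cells of a type and less RNA per cell cannot be told apart.

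The mean level of the 306 members, on the log2(CPM + 1) scale, was 5.86, 5.59 and 5.52 in the wild type Pma libraries and 1.94, 1.86 and 1.67 in wild type mock. In Pma it was 3.73, 3.44 and 3.58 in sid2, 4.43, 4.05 and 3.01 in chp60g sard1, and 4.55, 4.11 and 3.01 in the triple mutant. The 3 libraries of sid2 lay close together, whereas experiment 3 of chp60g sard1 and of the triple mutant lay more than 1 log2 unit below their other libraries. The remaining genotypes were not used by the selection. In Pma, cbp60a was at 5.87, 5.72 and 5.45 and cml46 cml47 at 5.68, 6.02 and 5.75, which overlaps wild type. The wrky70 libraries were lower, at 5.06, 5.05 and 4.69, and did not overlap those of cbp60a. In mock, cml46 cml47 was at 2.94, 3.22 and 3.34, above every wild type and sid2 mock library, and 1 cbp60a library stood apart at 3.65 beside 2.33 and 1.83. Members made up 6.22% to 7.47% of all counts in wild type Pma, 1.28% to 1.57% in sid2 Pma and 0.32% to 0.475% in wild type mock.

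**Figure D1:**
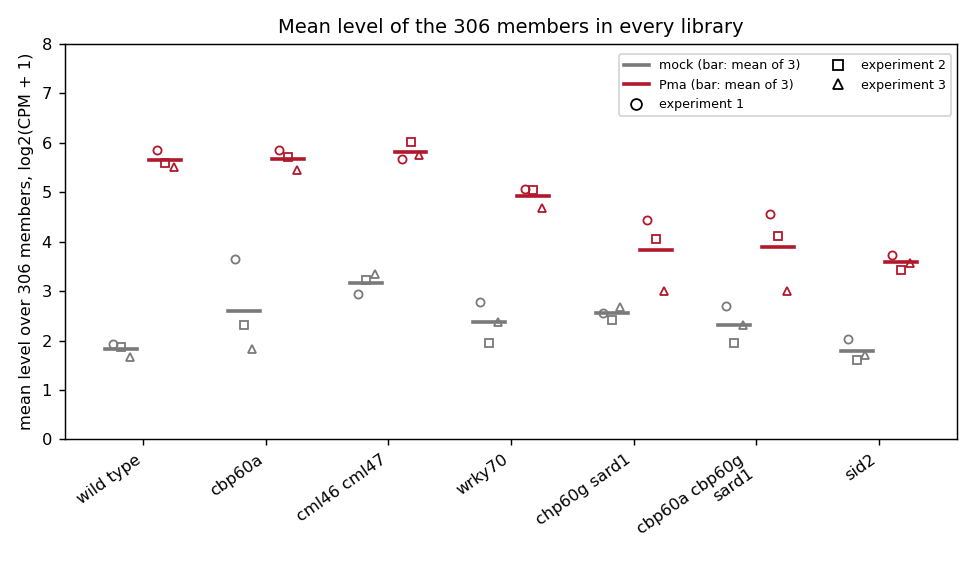
Mean log2(CPM + 1) over the 306 members (vertical axis) in each of the 42 libraries, by genotype (horizontal axis), with grey for mock, red for Pma, symbols for experiments 1 to 3 and bars for the mean of 3 libraries. Infected wild type, cbp60a and cml46 cml47 libraries sit between 5.45 and 6.02, those of wrky70 between 4.69 and 5.06, and those of sid2 between 3.44 and 3.73, while chp60g sard1 and the triple mutant reach down to 3.01 in experiment 3.

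The values that chose the members are given as a description. Induction in wild type ran from 2.00 to 10.89 log2 units with a median of 3.45, and 54 members had no count in any wild type mock library. The loss in sid2 had a median of 1.76 log2 units (1.00 to 8.45), and the loss in chp60g sard1 a median of 1.59 (1.00 to 7.05). Just inside the induction threshold were HYH at 2.00, EBS3 at 2.01 and TSBtype2 at 2.02 log2 units, and just outside were AGAL1 at 1.98, SDR5 at 1.98 and CRK26 at 1.97. At the sid2 threshold, XTH29 at 1.00, LOL2 at 1.01 and AT1G72060 at 1.02 were inside, and AT5G39785 at 0.98, MPK11 at 0.98 and SUFE2 at 0.98 were outside. At the chp60g sard1 threshold, PIRL2, AT1G35710 and HR4 were inside at 1.00 log2 units each, and SOBIR1 at 1.00 (0.9999 before rounding), CYP711A1 at 1.00 (0.999) and WRKY59 at 0.99 were outside. The set's edge is therefore set by small differences. With CPM scaled by TMM, which lowers the wild type induction by 0.4 and the losses by 0.25 log2 units, 168 of the members stayed.

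The 6 members with the highest levels in wild type Pma were ECS1, PCR1, PR1, AIG1, EXT3 and WRKY70. PR1, the classical marker of salicylic acid output, was 3.51, 1.26 and 4.03 CPM in wild type mock and 8855, 5242 and 7545 CPM in wild type Pma. It was 73.6, 21.8 and 50.4 CPM in sid2 Pma and 259, 51.5 and 9.94 CPM in chp60g sard1 Pma. Every wild type Pma library was thus far above every library of both mutants, although PR1 in sid2 Pma was also above all sid2 mock libraries, which held 2.48, 9.94 and 4.04 CPM. PCR1, a cysteine-rich membrane protein known from cadmium resistance, was 8199, 7975 and 6447 CPM in wild type Pma. In sid2 it was 50.6, 24.7 and 39.5 CPM with Pma and 62.1, 13 and 42.4 CPM with mock, so these groups overlapped. ECS1, a cell wall protein, was abundant before infection, at 1624, 2232 and 1226 CPM in wild type mock and 6467, 9296 and 9019 CPM in wild type Pma. AIG1, first known as a gene induced by a bacterial effector, held 1334, 1555 and 1783 CPM in sid2 Pma and 1342, 1467 and 413 CPM in chp60g sard1 Pma, against 3932, 4430 and 3366 CPM in wild type Pma. It was strongly induced in both mutants and still met the rule. EXT3, an extensin of the cell wall, also stayed high in sid2 Pma, with 1723, 708 and 738 CPM beside 3764, 1588 and 1974 CPM in wild type Pma.

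Whether the members also depend on CBP60g and SARD1 in lines that played no part in their selection was read from the triple mutant and its parent genotype cbp60a, both infected. All tests used edgeR's quasi-likelihood test with the experiment as a block, over 15161 genes, with Benjamini-Hochberg adjustment and a threshold of 0.05. Of the members, 294 passed the filter on low counts and 12 did not, and 291 pass it without the libraries used by the rule. Of the 294, 154 were lower in the triple mutant, where 4.0% of all tested genes were, and 0 were higher, where 9.95% of all tested genes were. At an unadjusted p under 0.05, where 17.3% of all tested genes were higher, the count of higher members was also 0, as it was by DESeq2. The fitted difference was negative for 293 of 294 members, with a median of −1.31 log2 units against 0.08 over all tested genes. As plain differences of log2(CPM + 1), without TMM scaling, the median was −1.19, −1.32 and −2.26 in experiments 1, 2 and 3, so experiment 3 gave the largest difference. Without experiment 3 the count was 64, without experiment 2 it was 76, and without the triple mutant's Pma library of experiment 3 alone it was 76. Although the lines differ, their libraries come from the same 3 experiments as those of the rule. Applied without experiment 3, the rule kept 176 of the 306 members, so the selection leans on that experiment too. Induced genes outside the set behaved differently by class: 141 of 314 tested genes lower in chp60g sard1 alone, 12 of 213 lower in sid2 alone and 30 of 1488 lower in neither were called lower.

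**Figure D2:**
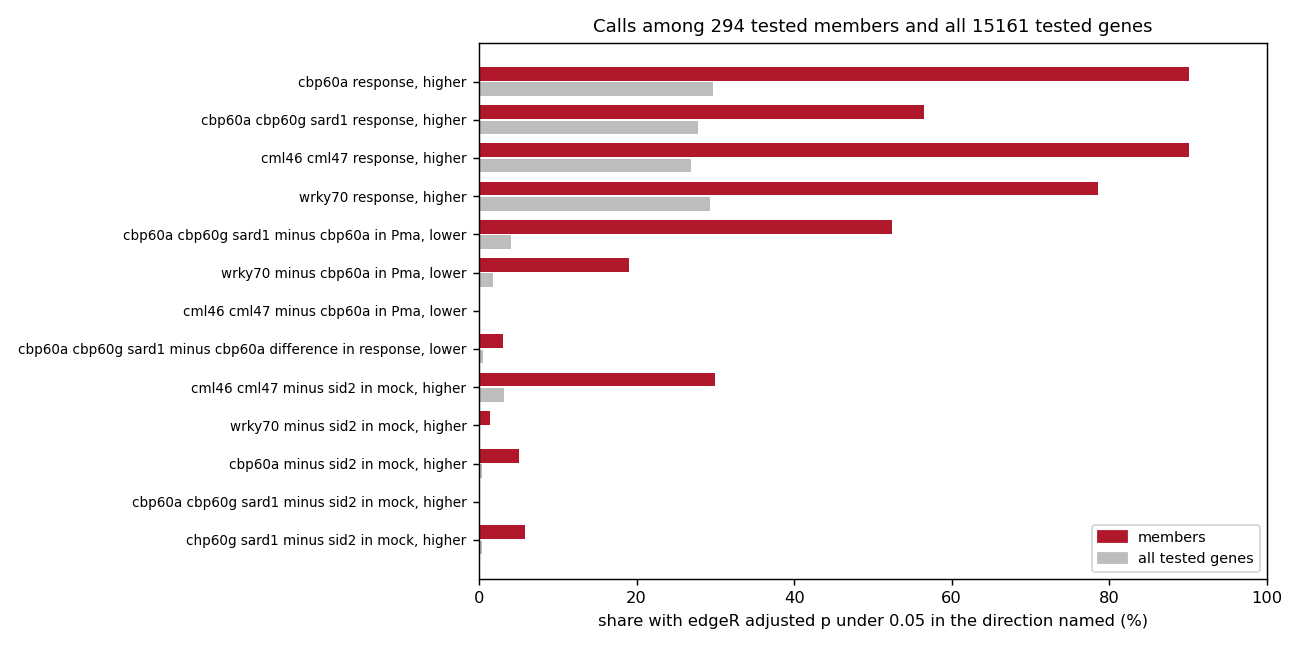
Share of genes with an edgeR adjusted p under 0.05 in the direction named (horizontal axis, %), for the 294 tested members in red and all 15161 tested genes in grey, in each comparison (vertical axis). In the triple mutant against cbp60a in Pma, 52.4% of members and 4.0% of all genes were lower, and in wrky70 against cbp60a 19% and 1.73% were.

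The salicylic acid synthesis list held 5 members among its 19 genes: ICS1, SARD1, PAD4, EDS1B and ADR1. ICS1 was 468, 635 and 910 CPM in cbp60a Pma and 37.2, 38.6 and 49.2 CPM in the triple mutant. These libraries did not overlap, and ICS1 was lower in the triple mutant by −3.73 ± 0.45 log2 units (SE, adjusted p = 9.88e-07). The triple mutant still had more ICS1 transcript in Pma than in mock, where it held 8.16, 15.9 and 9.07 CPM, and this rise of 1.76 ± 0.47 log2 units passed the test (adjusted p = 0.00172). SARD1 is itself mutated in the triple mutant, so an effect of its own mutation cannot be told apart in its fall from 301, 229 and 192 to 9.58, 19.3 and 5.72 CPM (−4.17 ± 0.59, adjusted p = 1.14e-05). Its annotated end overlaps GIP2 on the opposite strand, and whether counting used the strand is not stated in the labels. In sid2 Pma, SARD1 kept 107, 47.9 and 71.8 CPM.

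PAD4, a lipase-like partner of EDS1 in immune signalling, was 282, 403 and 277 CPM in cbp60a Pma and 178, 118 and 62.4 CPM in the triple mutant. The groups did not overlap and the fall of −1.23 ± 0.40 log2 units passed the test (adjusted p = 0.0345). EDS1B, a near copy of EDS1 whose reads may be shared with it, was 33.8, 43.7 and 22.6 CPM in cbp60a Pma and 19.7, 36.9 and 6.3 CPM in the triple mutant, which overlap (−0.54 ± 0.59, adjusted p = 0.622). ADR1, a helper receptor that acts with EDS1 and PAD4, was 38.4, 51 and 44.6 CPM in cbp60a Pma and 35.5, 33.4 and 12.6 CPM in the triple mutant, which narrowly do not overlap (−0.54 ± 0.30, adjusted p = 0.275). Over the whole list, 5 of 19 tested genes were lower in the triple mutant and 0 were higher, with a median of −0.54 log2 units. CBP60G, mutated there, was 1 of the 5 (−3.12 ± 0.43, adjusted p = 7.21e-06).

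SARD4 and UGT76B1 belong to the pathway of N-hydroxypipecolic acid, the second hormone of systemic resistance. SARD4, a reductase that makes its precursor pipecolic acid, was 334, 397 and 286 CPM in cbp60a Pma and 101, 79.9 and 24.6 CPM in the triple mutant. It fell by 2.12 ± 0.43 log2 units with no overlap (adjusted p = 0.000885). UGT76B1, a glucosyltransferase of N-hydroxypipecolic and salicylic acid, was listed at 0 in all wild type mock libraries and at 414, 380 and 209 CPM in wild type Pma. It nearly vanished from sid2 Pma, at 4.46, 2.9 and 3.33 CPM, and kept 94.7, 111 and 24.6 CPM in chp60g sard1 Pma. In the triple mutant it was 139, 83.4 and 13.2 CPM against 455, 388 and 200 CPM in cbp60a, a fall of 2.05 ± 0.57 log2 units (adjusted p = 0.0122). Of the 4 genes of that list, 3 were lower in the triple mutant.

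DMR6 and DLO1 are the hydroxylases that turn over salicylic acid. DMR6 was 239, 214 and 123 CPM in cbp60a Pma and 89.1, 114 and 30.9 CPM in the triple mutant, a difference that did not pass the test although the groups did not overlap (−1.11 ± 0.52, adjusted p = 0.169). DLO1 was 64.6, 19.8 and 87.5 CPM in cbp60a Pma and 5.64, 1.75 and 3.44 CPM in the triple mutant, and fell by 3.73 ± 0.70 log2 units (adjusted p = 0.000405). NIMIN1 and NIMIN2, small proteins that bind the receptor NPR1, fell by 2.05 ± 0.67 and by 2.25 ± 0.57 log2 units (adjusted p = 0.0367 and 0.00637). NIMIN2 went from 314, 257 and 244 to 95.3, 56.2 and 17.8 CPM, and NIMIN1 from 67.6, 98.8 and 48 to 13.5, 30.7 and 4.58 CPM, both without overlap. In their lists, 1 of 6 modification genes was lower and 1 higher, and 3 of 12 receptor, NIMIN and TGA genes were lower and 1 higher.

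PR1 was 11570, 8537 and 7061 CPM in cbp60a Pma and 505, 90.4 and 8.59 CPM in the triple mutant. It fell by 6.01 ± 1.19 log2 units (adjusted p = 0.000625), and without experiment 3 the difference was −5.28 with an adjusted p of 0.0529. BG3, a beta-1,3-glucanase that degrades a wall polymer, was 76.9, 38.5 and 30.5 CPM in cbp60a Pma and 62, 28.1 and 8.59 CPM in the triple mutant, which overlap (−0.46 ± 0.58, adjusted p = 0.673). GRXS13, a glutaredoxin of the plant-specific CC type, was 250, 183 and 131 CPM in cbp60a Pma. In the triple mutant it was 12.4, 8.78 and 1.15 CPM, a fall of 4.51 ± 0.59 log2 units (adjusted p = 3.38e-06). Its level in the triple mutant with mock, 4.45, 2.55 and 8.07 CPM, overlapped its level there with Pma. Of the pathogenesis-related list 1 of 6 was lower in the triple mutant, and of the glutaredoxin and thioredoxin list 1 of 3.

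**Figure D3:**
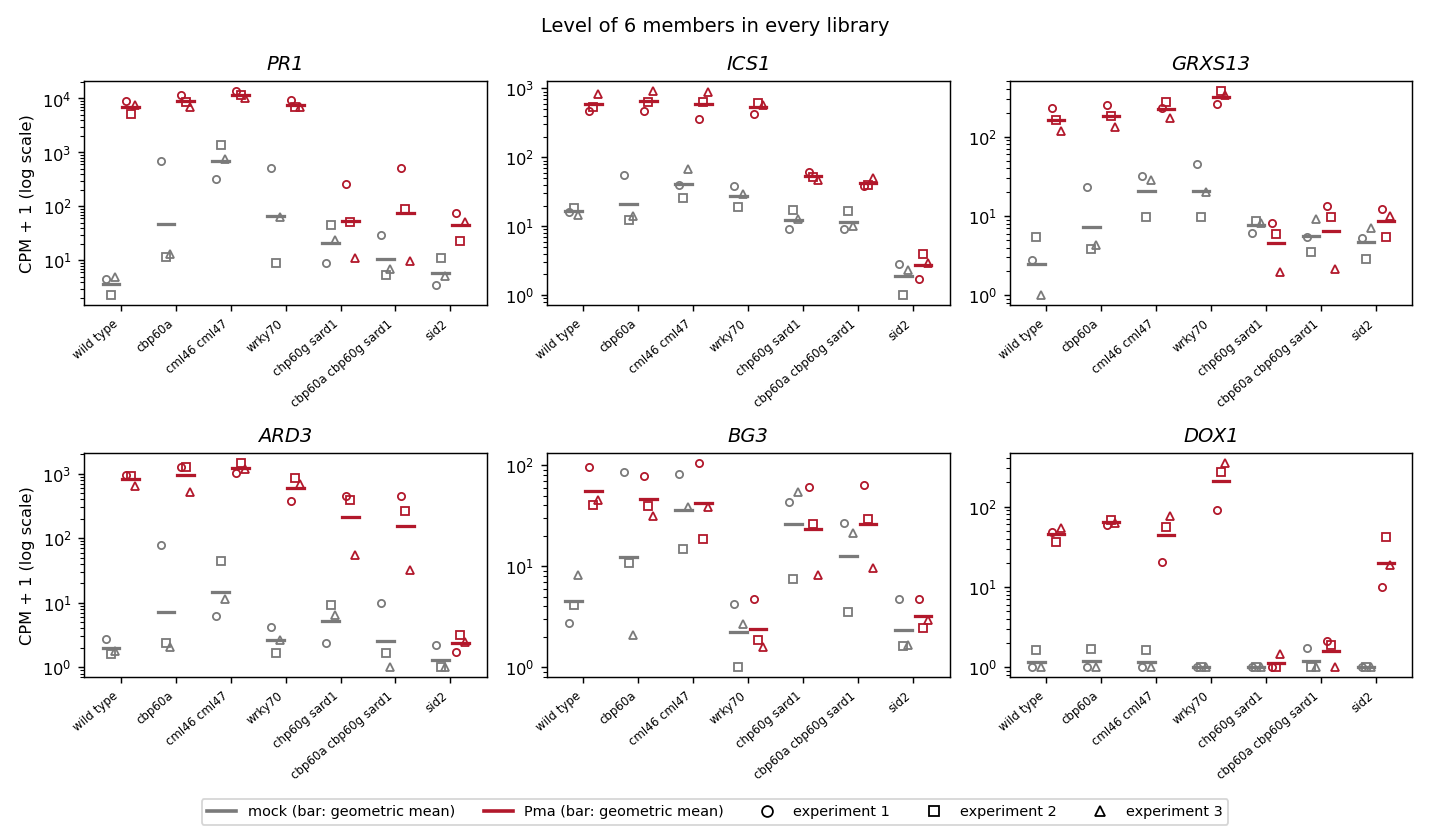
CPM plus 1 on a log axis (vertical) of PR1, ICS1, GRXS13, ARD3, BG3 and DOX1 in every library, by genotype (horizontal axis), with grey for mock, red for Pma, symbols for experiments and bars for the geometric mean of 3 libraries. BG3 is low in infected wrky70 and sid2 leaves, and DOX1 is at or near 0 in infected chp60g sard1 and triple mutant leaves but reaches 344 CPM in wrky70.

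Of the WRKY factors, WRKY18, WRKY38, WRKY53, WRKY60, WRKY63 and WRKY70 were members out of 32 listed. WRKY61, which is not in that list, was also a member. WRKY53, known from leaf senescence and defence, was 188, 126 and 136 CPM in cbp60a Pma and 36.6, 24.6 and 9.73 CPM in the triple mutant (−2.56 ± 0.47, adjusted p = 0.00027). WRKY60 fell by 1.42 ± 0.45 and WRKY63 by 1.32 ± 0.40 log2 units (adjusted p = 0.0316 and 0.0207). WRKY70 kept 1572, 1194 and 410 CPM in the triple mutant beside 2209, 2164 and 1715 CPM in cbp60a, and did not pass (−0.88 ± 0.49, adjusted p = 0.262). WRKY18, which acts with WRKY60, and WRKY38, which is known to act with NPR1 signalling, did not pass either, at −1.10 ± 0.58 and −1.31 ± 0.68 log2 units (adjusted p = 0.229 and 0.218). WRKY38 was 0, 0.726 and 2.38 CPM in sid2 Pma and 178, 198 and 93.5 CPM in wild type Pma, while chp60g sard1 Pma held 108, 91.3 and 26 CPM. Over the list, 3 of 25 tested genes were lower in the triple mutant and 0 were higher.

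CRK6, a cysteine-rich receptor kinase, was the single member of its list of 33 and fell from 75.7, 48.9 and 52.5 to 6.2, 16.7 and 5.15 CPM (−2.44 ± 0.65, adjusted p = 0.00996). CRT3, a calreticulin that folds receptors in the endoplasmic reticulum, was the single member among 15 chaperones and fell from 656, 797 and 673 to 232, 318 and 102 CPM (−1.54 ± 0.40, adjusted p = 0.00794). Of the tested genes of these lists, 6 of 30 receptor kinases were lower and 1 was higher, and 1 of 15 chaperones, CRT3, was lower. The wall-associated kinase, calcium, camalexin and jasmonate lists held 0 members. There 0 of 5 wall-associated kinases passed, 1 of 8 calcium genes was lower and 1 higher, 1 of 9 camalexin genes was lower and 3 higher, and 7 of 10 jasmonate genes were higher.

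**Figure D4:**
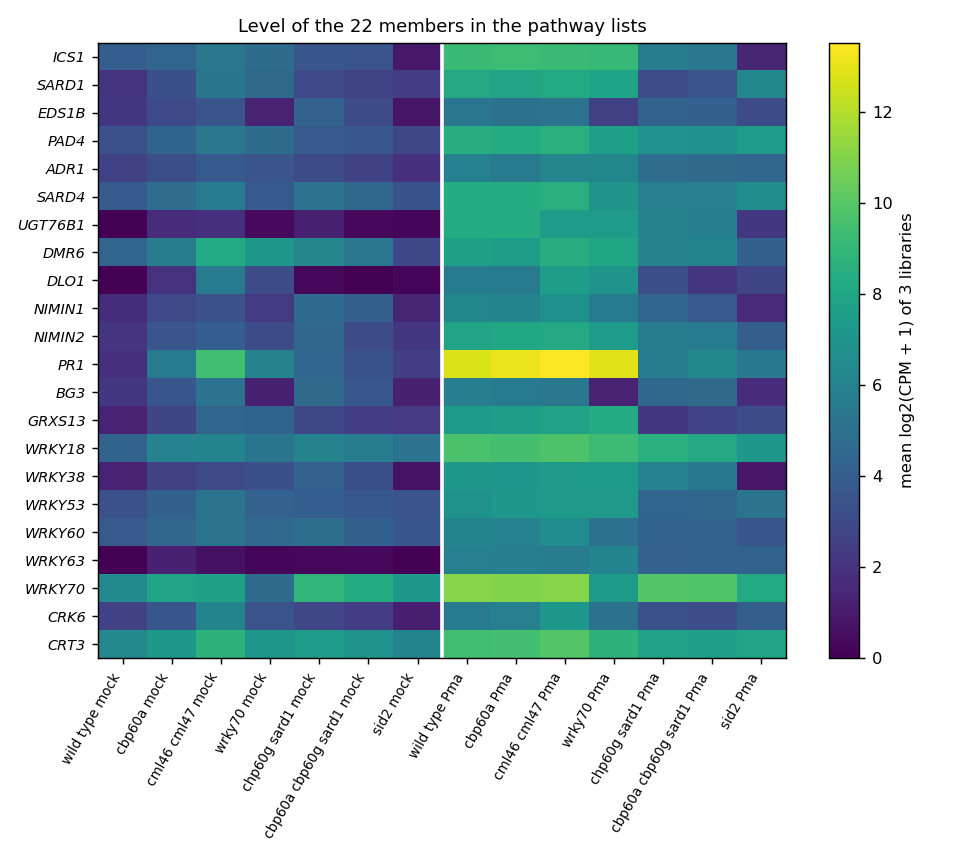
Mean log2(CPM + 1) of 3 libraries (colour) for the 22 members found in pathway lists (rows) in each of the 14 groups (columns), with mock to the left of the white line and Pma to the right. Among the Pma columns, ICS1, UGT76B1 and WRKY38 are darkest in sid2, and SARD1 is darkest in chp60g sard1 and the triple mutant. GRXS13 is dark in chp60g sard1, the triple mutant and sid2, and BG3 and EDS1B are dark in wrky70 and sid2.

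Beside PR1, GRXS13 and SARD1, the largest fitted falls in the triple mutant were in members with 3 counts or fewer over its libraries, whose ratios carry wide counting intervals. DOX1, a dioxygenase that oxidises fatty acids, was 58.2, 67.6 and 62.1 CPM in cbp60a Pma and 1.13, 0.878 and 0 CPM in the triple mutant. This is 275 against 3 counts, 96.0-fold lower with a 95% counting interval of 32.5 to 468 (adjusted p = 1.73e-07). LAC7, a laccase, went from 21, 7.28 and 19.2 to 0.564, 0 and 0 CPM, 80.7-fold lower with an interval of 14.1 to 3230 (adjusted p = 6.11e-05). AT5G46960, annotated as an inhibitor of invertase or pectin methylesterase, was 72.6-fold lower (24.5 to 355, adjusted p = 1.23e-06), and AT3G47050, a glycosyl hydrolase, 42.9-fold lower (7.29 to 1740, adjusted p = 0.000783). MLO12, whose family includes susceptibility factors for powdery mildew, went from 20.4, 19.8 and 13.6 to 1.13, 0 and 0.572 CPM, 27.2-fold lower with an interval of 8.98 to 135 (adjusted p = 7.13e-05). MLO12 overlaps the annotated gene ATATH8 on the opposite strand. At the other end, AT3G44326, an F-box protein, was 8.74, 7.28 and 6.78 CPM in cbp60a Pma and 8.46, 11.4 and 6.3 CPM in the triple mutant (0.40 ± 0.48, adjusted p = 0.662). ORC6, AT1G51620, AT3G47800 and AT5G58540 also lay near 0, between −0.30 and −0.14 log2 units, and did not pass the test.

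WRKY70 is both a member and a mutated gene of the study, and infected wrky70 leaves were compared with infected cbp60a leaves, which keep ICS1, CBP60g and SARD1. In wrky70, 56 of 294 members were lower, where 1.73% of all tested genes were, and 1 was higher, where 2.45% of all tested genes were. The fitted median was −0.53 log2 units, against 0.10 over all tested genes. As plain differences of log2(CPM + 1), the median in experiments 1, 2 and 3 was −0.65, −0.46 and −0.67. The count of lower members moved widely with the libraries: it was 3 without experiment 2, 27 without experiment 3, 36, 32 and 30 without the cbp60a Pma library of experiment 1, 2 or 3, and 37 without the wrky70 Pma library of experiment 1. Outside the set, 49 of 213 tested genes lower in sid2 alone, 1 of 314 lower in chp60g sard1 alone and 22 of 1488 lower in neither were called lower in wrky70. This comparison and that of the triple mutant share the cbp60a libraries.

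BG3 was 3.71, 0.88 and 0.575 CPM in wrky70 Pma, far below the 76.9, 38.5 and 30.5 CPM of cbp60a Pma (−4.92 ± 0.81, adjusted p = 0.00056). Without experiment 2 the difference was −4.71 with an adjusted p of 0.0874. ANK, an ankyrin-repeat protein, was 32.8, 58.1 and 30.5 CPM in wrky70 Pma and 268, 790 and 397 CPM in cbp60a Pma (−3.48 ± 0.57, adjusted p = 0.000566). LAC7 was 38.9-fold lower on 2 against 77 counts (10.4 to 327, adjusted p = 0.00056). CYP71B9, a cytochrome P450, had 0 counts in wrky70 Pma against 45 in cbp60a Pma, at least 15.1-fold lower with a floor of 3 counts over the group (adjusted p = 0.00105), and the adjusted p was 0.131 without experiment 2. IQD7, a calmodulin-binding IQ-domain protein, was 14.8-fold lower on 3 against 44 counts (4.75 to 74.5, adjusted p = 0.00699). Its adjusted p was 0.198 without experiment 2 and 0.0968 without experiment 1. IQD7 and ANK each overlap an annotated gene on the opposite strand, as do EDS1B, EXT3, WRKY53, MLO2, TPX2, GUS2, AT3G13610 and AT5G03350 among the genes given by value here, while SARD4 overlaps one on its own strand.

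WRKY70 itself was 144, 260 and 122 CPM in wrky70 Pma against 2209, 2164 and 1715 CPM in cbp60a Pma, where an effect of its own mutation cannot be told apart (−3.48 ± 0.54, adjusted p = 0.000431, and 0.0542 without experiment 2). EDS1B was 6.19, 12.3 and 1.15 CPM in wrky70 Pma and 33.8, 43.7 and 22.6 CPM in cbp60a Pma, without overlap (−2.44 ± 0.67, adjusted p = 0.0314). ECS1 was 3544, 2258 and 1627 CPM in wrky70 Pma and 6019, 9780 and 8768 CPM in cbp60a Pma (−1.74 ± 0.38, adjusted p = 0.00861). PR1, at 9257, 6996 and 6922 CPM in wrky70 Pma, overlapped cbp60a Pma (−0.14 ± 0.94, adjusted p = 0.968), and ICS1, at 430, 611 and 565 CPM, did too (−0.28 ± 0.39, adjusted p = 0.779). DOX1 was the 1 member that was higher, with 90.4, 272 and 344 CPM in wrky70 Pma beside 58.2, 67.6 and 62.1 CPM in cbp60a Pma (1.76 ± 0.44, adjusted p = 0.0157). That call was lost without experiment 2 (adjusted p = 0.3), without experiment 3 (0.222), and without the cbp60a Pma library of experiment 2 (0.105) or 3 (0.124) or the wrky70 Pma library of experiment 3 (0.0726). Of 19 salicylic acid synthesis genes, 1, EDS1B, was lower and 1 was higher, CBP60A, which is mutated in the comparator cbp60a (1.63 ± 0.25, adjusted p = 0.00032). The 1 of 25 tested WRKY factors called lower was WRKY70 itself. In the other lists, 1 of 6 pathogenesis-related genes, 1 of 30 cysteine-rich receptor kinases and 2 of 5 wall-associated kinases were lower, and 1 of 9 camalexin genes was higher. Over all tested genes 1.73% were lower and 2.45% higher, and counts this small were not tested as lists.

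In infected cml46 cml47 leaves, 0 members were higher and 0 lower than in cbp60a by edgeR, where 0.119% and 0.0198% of all tested genes were. At an unadjusted p under 0.05, 10 of 294 members were higher and 3 lower, where 8.86% and 4.18% of all tested genes were. By DESeq2 0 members passed in either direction. The median difference was 0.06 log2 units, beside 0.05 over all tested genes. Without the cml46 cml47 Pma library of experiment 3 the edgeR count was 2. PR1 was 13630, 11400 and 10430 CPM in cml46 cml47 Pma, and ICS1 363, 634 and 884 CPM.

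The members' levels in the mutants that chose them differed among themselves, and this difference is a description. In Pma, 179 members were lower in sid2 than in chp60g sard1 and 127 were higher, and the difference reached 1 log2 unit for 60 and 26. ARD3, an acireductone dioxygenase of the methionine salvage pathway, was 962, 915 and 652 CPM in wild type Pma. It was 0.744, 2.18 and 1.43 CPM in sid2 Pma and 444, 396 and 53 CPM in chp60g sard1 Pma. AT5G03350, a lectin, was 5.95, 19.6 and 21.4 CPM in sid2 Pma, below its own sid2 mock libraries at 231, 65.8 and 61.3 CPM, and was 718, 539 and 191 CPM in chp60g sard1 Pma. With ICS1, UGT76B1 and WRKY38, these were the 5 members lowest in sid2 relative to chp60g sard1. At the other end, DOX1 was 0, 0 and 0.473 CPM in chp60g sard1 Pma and 8.93, 40.6 and 17.6 CPM in sid2 Pma. AT3G13610, an oxygenase of the 2-oxoglutarate family, was 49.1, 25.2 and 7.57 CPM in chp60g sard1 Pma and 190, 96.5 and 100 CPM in sid2 Pma, and AT5G46960, AT2G39518 and SARD1 completed the 5 there.

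The same split was then read in lines that did not define it, with subgroups formed after values were seen and so given as counts and medians without a test of the subgroups. The split was cut on the sid2 Pma and chp60g sard1 Pma values that also chose the members. The triple mutant is mutated in CBP60g and SARD1, as chp60g sard1 is, so falls there among members lowest in chp60g sard1 were likely beforehand. Of the 26 members lower in chp60g sard1 by at least 1 log2 unit, 23 were lower in the triple mutant than in cbp60a, with a median of −3.07 log2 units, and 1 was lower and 1 higher in wrky70, with a median of 0.10. Of the 58 tested members lower in sid2 by at least 1, 25 were lower in the triple mutant, with a median of −1.20, and 27 were lower in wrky70, with a median of −1.39. Of the 210 tested members between these, 106 were lower in the triple mutant (median −1.27) and 28 in wrky70 (median −0.43). For comparison, of all 294 tested members 154 were lower in the triple mutant (median −1.31) and 56 in wrky70 (median −0.53). Of all tested genes, 4.0% were lower in the triple mutant and 1.73% in wrky70. ARD3, with 450, 260 and 30.9 CPM in the triple mutant and 1263, 1290 and 523 CPM in cbp60a Pma, fell by 2.08 ± 0.71 log2 units (adjusted p = 0.0425), and was 380, 861 and 688 CPM in wrky70 Pma (−0.34 ± 0.69, adjusted p = 0.852). AT3G13610 fell by 3.34 ± 0.62 log2 units in the triple mutant (adjusted p = 0.000277).

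**Figure D5:**
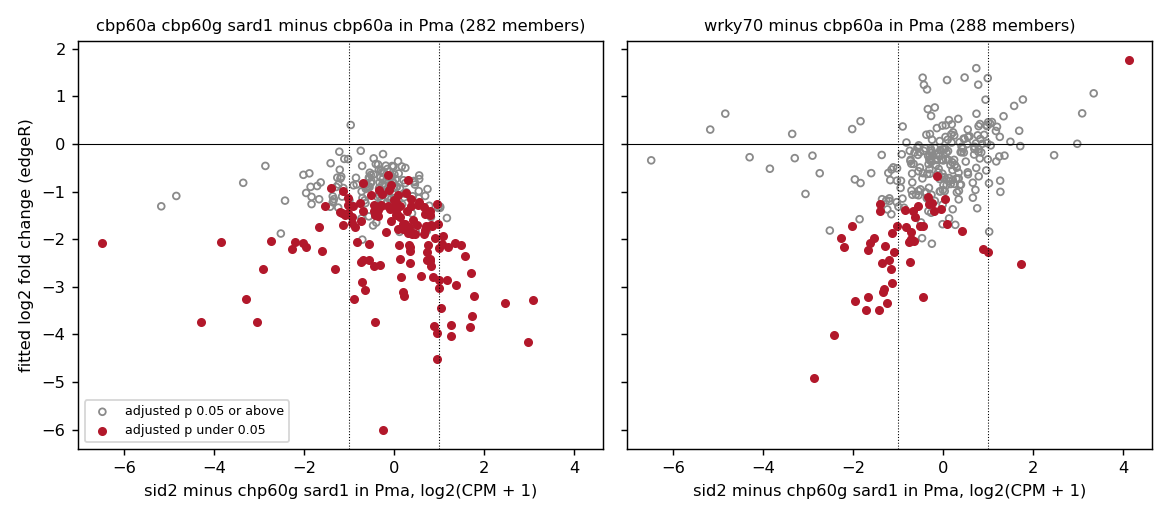
Fitted log2 fold change of each member (vertical axis) in the triple mutant against cbp60a (left, 282 members) and in wrky70 against cbp60a (right, 288 members), both in Pma, against its level in sid2 Pma minus that in chp60g sard1 Pma (horizontal axis, log2(CPM + 1)); filled points have an edgeR adjusted p under 0.05, dotted lines mark differences of −1 and 1, and members with 3 counts or fewer in a group are left out. In the left panel, called members extend across the whole axis. The lowest plotted member there, PR1, lies between the dotted lines, and DOX1, lower still, is left out. In the right panel nearly all of the 52 called members are lower and lie left of the line at 1.

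Most members were higher after infection in the genotypes outside the rule, and 0 were lower in any of these 4 by edgeR, at an unadjusted p under 0.05 or by DESeq2. Of all tested genes, 30.2% to 33.5% were lower by edgeR. The rule chose members for induction in wild type of the same 3 experiments, so a rise here was likely beforehand. In cbp60a 265 of 294 were higher with Pma than with mock, where 29.7% of all tested genes were, with a median of 2.64 log2 units. In cml46 cml47 the count was also 265, where 26.9% of all tested genes were higher, and the median was 2.32. In wrky70 it was 231, where 29.3% of all tested genes were higher, with a median of 2.56. In the triple mutant it was 166, where 27.8% of all tested genes were higher, with a median of 1.67 log2 units, or 1.55 with members at 3 counts or fewer set to their bound. There the median in experiments 1, 2 and 3, as plain differences of log2(CPM + 1), was 1.70, 2.02 and 0.43. Induced genes outside the set rose too. Of those lower in chp60g sard1 alone, in sid2 alone and in neither, 98.7%, 89.7% and 95.8% were higher in cbp60a, beside 90.1% of members. In cml46 cml47 these shares were 95.9%, 91.5% and 91.7%, beside 90.1%. In wrky70 they were 97.5%, 80.3% and 95.9%, beside 78.6%, and in the triple mutant 80.3%, 78.9% and 95.7%, beside 56.5%. UGT76B1 rose in the triple mutant on 365 against 1 counts, 306-fold with an interval of 54.6 to 12100 (adjusted p = 2.35e-07). TPX2, a thioredoxin-dependent peroxidase, rose there on 454 against 1 counts (381-fold, 68.0 to 15100, adjusted p = 2.82e-08), and its Pma level of 187, 61.4 and 29.8 CPM overlapped the 150, 139 and 145 CPM of cbp60a. NAC047, a transcription factor with 0 counts in the triple mutant's mock libraries, rose there at least 13.7-fold (adjusted p = 8.22e-06). In wrky70, CHX17, a cation and proton exchanger, rose from 1.6, 0 and 2.25 to 340, 886 and 770 CPM (8.68 ± 0.79 log2 units, adjusted p = 1.17e-11).

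Tested as a difference of the responses, 9 members rose less in the triple mutant than in cbp60a, where 0.455% of all tested genes did. At an unadjusted p under 0.05 the count was 47 of 294, where 3.87% of all tested genes were, and DESeq2 gave 11. With symbols, and in order of size, they included GRXS13 at −3.62 ± 0.93 log2 units (adjusted p = 0.0224), LOL2, a zinc finger protein related to the cell death regulator LSD1, at −2.59 ± 0.53 (adjusted p = 0.00579), and ICS1 at −2.47 ± 0.64 (adjusted p = 0.0237). HA2, a plasma membrane proton pump, was 145, 32.8 and 76.1 CPM in cbp60a mock and 534, 467 and 373 CPM in cbp60a Pma. In the triple mutant it was 92.7, 29.9 and 85.7 CPM with mock and 71, 100 and 45.2 CPM with Pma, which overlap (difference −2.16 ± 0.47, adjusted p = 0.00839). MEE62, a leucine-rich repeat kinase, differed by −2.12 ± 0.53 (adjusted p = 0.0197), YSL3, a metal chelate transporter, by −1.96 ± 0.45 (adjusted p = 0.0111), and MLO2 by −1.79 ± 0.38 (adjusted p = 0.0062). The count rests on single libraries: it was 24 without experiment 1, 1 without experiment 2, 0 without experiment 3, 21 without the cbp60a mock library of experiment 1, 16 without the triple mutant's Pma library of experiment 1 and 2 without that of experiment 3. The 6 named first lost their calls in at least 1 of these, with an adjusted p without experiment 3 of 0.438 for GRXS13, 0.155 for LOL2, 0.352 for ICS1, 0.274 for HA2, 0.302 for MEE62 and 0.299 for YSL3. In the full fit, 11 of 314 tested genes lower in chp60g sard1 alone also rose less in the triple mutant. Among those lower in sid2 alone it was 0 of 213, and among those lower in neither 2 of 1488.

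Levels without infection were compared with sid2 mock, which the rule did not use, and which the next 5 comparisons share. The rule chose members for lower levels in infected sid2, so higher values than in sid2 were more likely beforehand. In cml46 cml47, 88 of 294 members were higher, where 3.12% of all tested genes were, with a median of 1.56 log2 units, or 1.34 at bounds, and positive values for 272 members. Outside the set, the calls were 55 of 314, 40 of 213 and 171 of 1488. These are tested genes lower in chp60g sard1 alone, in sid2 alone and in neither. PR1 was 326, 1348 and 752 CPM in cml46 cml47 mock and 2.48, 9.94 and 4.04 CPM in sid2 mock (7.17 ± 1.33, adjusted p = 0.00114). Its adjusted p was 0.0705 without experiment 2 and 0.0611 without experiment 3. DMR6 was 269, 291 and 352 CPM against 12.4, 3.1 and 7.41 CPM (5.20 ± 0.65, adjusted p = 1.06e-05). DLO1 was 258-fold higher on 340 against 1 counts (46 to 10200, adjusted p = 2.55e-05). CRK6 was 60, 55.2 and 97 CPM against 3.73, 0 and 1.35 CPM (5.22 ± 0.80, adjusted p = 0.000106). AAT1, an amino acid transporter, was at least 9.61-fold higher on 38 against 0 counts (adjusted p = 0.00178), and ARD3 41-fold higher on 108 against 2 counts (11.1 to 343, adjusted p = 0.0196). The calls on AAT1 and ARD3 were lost without experiment 2 and without experiment 3, and that on ARD3 also without the cml46 cml47 mock library of experiment 2 and without any 1 sid2 mock library. The count of 88 was 16 without experiment 2, 31 without experiment 3, 42 without the cml46 cml47 mock library of experiment 3, and 57, 48 and 54 without the sid2 mock library of experiment 1, 2 or 3. In the lists, 9 of 19 salicylic acid synthesis genes, 1 of 4 N-hydroxypipecolic acid genes, 3 of 6 modification genes, 2 of 12 receptor genes, 4 of 6 pathogenesis-related genes, 2 of 3 glutaredoxin genes, 4 of 25 WRKY factors, 12 of 30 cysteine-rich receptor kinases, 2 of 5 wall-associated kinases, 3 of 8 calcium genes, 11 of 15 chaperones, 1 of 9 camalexin genes and 0 of 10 jasmonate genes were higher, and 1 calcium gene was lower.

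The other genotypes showed few calls without infection. In chp60g sard1 mock 17 members were higher than in sid2 mock, where 0.389% of all tested genes were, and in cbp60a mock 15, where 0.369% were. Outside the set, 2 of 314, 20 of 213 and 8 of 1488 tested genes were higher in chp60g sard1 mock. These are genes lower in chp60g sard1 alone, in sid2 alone and in neither. In the same order, 5, 15 and 17 were higher in cbp60a mock, and 6, 0 and 7 in wrky70 mock. In wrky70 mock 4 were higher, where 0.152% were, and 1 was lower, WRKY70 itself, where 0.0132% were. In the triple mutant 0 were higher by edgeR, where 0.00660% of all tested genes were. At an unadjusted p under 0.05 the count was 64 of 294, where 4.48% of all tested genes were, and by DESeq2 it was 3. ICS1 was higher in chp60g sard1, cbp60a and wrky70 mock, but ICS1 is the gene mutated in sid2, so an effect of that mutation on its transcript cannot be told apart in these calls. DMR6 was 264, 58.1 and 179 CPM in wrky70 mock (4.29 ± 0.63 against sid2, adjusted p = 0.000478, and 0.0529 without experiment 1), and GUS2, a glucuronidase, was 57.6, 19.1 and 32.1 CPM against 14.9, 7.45 and 13.5 CPM (1.38 ± 0.30, adjusted p = 0.0441). The GUS2 call was lost under 10 alternatives, with an adjusted p of 0.066 with RLE size factors, 0.242 without the replicate block, and 0.887, 0.294 and 0.255 without experiment 1, 2 or 3. EDS1B was 19.2, 12.2 and 24.2 CPM in chp60g sard1 mock and 1.86, 0 and 0.673 CPM in sid2 mock (4.30 ± 0.92, adjusted p = 0.0215). BG3 was 42.3, 6.41 and 53.8 CPM in chp60g sard1 mock against 3.73, 0.621 and 0.673 CPM in sid2 mock (4.29 ± 0.81, adjusted p = 0.00837). Without experiment 2 or 3 the adjusted p was 0.366 and 0.499 for EDS1B and 0.366 and 0.147 for BG3, and both calls were also lost without any 1 sid2 mock library, and that on BG3 without the replicate block (0.155). These counts hung on single libraries. Without the cbp60a mock library of experiment 1, which stood apart in the members' mean level, the count for cbp60a was 0, and it was 31 and 54 without that of experiment 2 or 3, 1 without any 1 sid2 mock library, and 0 without experiment 1 or 2. For chp60g sard1 it was 0 without experiment 2 or 3 or the sid2 mock library of experiment 2, 1 without the sid2 mock library of experiment 3 or the chp60g sard1 mock library of experiment 3, 11 without the chp60g sard1 mock library of experiment 2, and 9 without the sid2 mock library of experiment 1.

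By the products named in the reference, which were grouped after values were seen, kinases gave 33 members, from 186 induced of 1298 in the table, of which 16 of 31 tested were lower in the triple mutant, 7 in wrky70, and 9 higher in cml46 cml47 mock. Transporters, exchangers and channels gave 24 members, from 125 induced of 906, with 11 of 23 tested lower in the triple mutant and 2 in wrky70. Calmodulin, calcium and C2 domain proteins gave 13, from 57 induced of 309, with 9 lower in the triple mutant and 3 in wrky70. Disease resistance, TIR or RPW8 proteins gave 8, from 34 induced of 176, with 1 of 8 tested lower in the triple mutant and 2 in wrky70. Over the whole set, 154 of 294 tested members were lower in the triple mutant, 56 were lower in wrky70 and 88 were higher in cml46 cml47 mock. Members were 306 of the 2341 induced genes. The 3 members MLO2, MLO3 and MLO12 were among 4 induced of 14 MLO genes, the vacuolar sorting receptors VSR5, VSR6 and VSR7 among 3 induced of 4, and 5 C1 domain proteins among 6 induced of 133. MLO2 was 704, 637 and 533 CPM in cbp60a Pma and 227, 167 and 71.6 CPM in the triple mutant, a fall of 1.86 ± 0.27 log2 units (adjusted p = 1.45e-05), and stayed at 557, 595 and 548 CPM in wrky70 Pma (−0.09 ± 0.26, adjusted p = 0.912). MLO3 did not pass in the triple mutant (−0.78 ± 0.48, adjusted p = 0.319). The members lay on all 5 chromosomes, with 78, 43, 63, 54 and 68 on chromosomes 1 to 5. A member sat next to another member in 26 of 306 cases, or 8.5%, and PR1 with XTH10 was 1 of the 13 adjacent pairs. Within their own classes, the share was 6.83% of 322 genes lower in chp60g sard1 alone. It was 1.83% of 219 lower in sid2 alone and 16.6% of 1494 lower in neither. A larger class has more such neighbours by its size alone, and no expected share was computed, so these shares do not rank the classes.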

How the data were processed

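The files hold deposited counts of reads per locus for 42 libraries of Smart-3SEQ, a 3′-end RNA method with a 5-base molecular tag. Per the submitters' processing notes, bcl2fastq 2.17.1.14, STAR 2.4.2a and TAIR10 were used. Per the labels' protocols 8 bases were trimmed. The counting tool, annotation release, strand setting and any use of the tag to remove duplicates are not stated in the labels, so intervals on counts cover counting error only.

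From the deposited counts, CPM was computed with column sums and members were chosen by the rule above. Members, gene lists and motifs were chosen with earlier results of these data known. Tests used edgeR 4.0.16 in R 4.3.3 (TMM factors 0.813 to 1.291, minimum count 10 and minimum total count 15 in the filter, 14 groups plus the experiment as a block, 26 residual degrees of freedom). The 3 experiments are independent by the labels and each held every group. Deviations of libraries of the same experiment had mean correlations of 0.372, 0.351 and 0.133. Contrasts used by the rule were not tested. Depth was 919335 to 2691069 counts. Genes named were the members in pathway lists, up to 6 (and 4 in the opposite direction) per comparison with the largest changes among called members with a symbol, a mean of at least 5 CPM and 1 direction in all 3 experiments, the 6 highest in wild type Pma, the 3 on each side of a threshold, and the 5 extremes of the triple mutant comparison and of the difference between sid2 and chp60g sard1. MLO2, MLO3 and the VSR genes, outside this rule, were named after values were seen, and not every gene it picks is described. Where a group held 3 counts or fewer, a ratio with an exact 95% interval, or a bound from a floor of 3 counts, replaces the fitted fold. On simulated counts for the triple mutant against cbp60a in Pma (14622 genes), 1, 8, 45 and 50 of 50 genes changed 1.5-, 2-, 4- and 8-fold were called, with 6 of 14422 unchanged genes. Alternatives were RLE size factors, no filter, no block, the compared groups alone, DESeq2 1.42.0, leaving out libraries or experiments, and other selection settings.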

Additional observations from a re-analysis of the deposited data

Results flagged for a closer look

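A test of the difference between responses to Pma in the triple mutant and in cbp60a gave 9 members with a smaller response in the triple mutant, as 0.455% of all tested genes had. The named ones differed by −3.62 log2 units for GRXS13, −2.59 for LOL2, −2.47 for ICS1, −2.16 for HA2, −2.12 for MEE62 and −1.96 for YSL3, on 3 libraries per group. Each of these 6 calls was lost without experiment 3.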

How the results depend on the processing

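Counts below are of members with an edgeR adjusted p under 0.05, in the direction given in the report. Without the replicate block, which pairs libraries of 1 experiment, 93 members were lower in the triple mutant than in cbp60a in Pma, 24 were lower in wrky70, 4 had a smaller response, and in mock against sid2 53 were higher in cml46 cml47, 2 in wrky70, 7 in cbp60a and 8 in chp60g sard1. With the compared groups alone, 81 rose in the triple mutant, 4 had a smaller response there, and 32 members in wrky70, 23 in the triple mutant and 64 in chp60g sard1 were higher than in sid2 mock. Without a filter on low counts the wrky70 mock count was 7. DESeq2 gave 25 for cbp60a, 3 for the triple mutant and 30 for chp60g sard1 in mock. Leaving out 1 library or experiment gave 230 to 280 for the cbp60a response, 118 to 183 for the triple mutant, 227 to 269 for cml46 cml47 and 194 to 231 for wrky70. In Pma against cbp60a it gave 64 to 169 for the triple mutant, 3 to 44 for wrky70 and 0 to 2 for cml46 cml47, and 0 to 24 for the smaller response. In mock it gave 16 to 101 for cml46 cml47, 1 to 14 for wrky70, 0 to 54 for cbp60a, 0 to 7 for the triple mutant and 0 to 21 for chp60g sard1. The rule itself gave 168 members with TMM-scaled CPM, 170 with 4 added to CPM, and 215 to 373 without 1 experiment. The 215 without experiment 3 held 176 of the 306 members. The causes were not tested, and leaving out libraries also leaves fewer samples. Single genes were checked only where they had been picked for a call and 1 direction in all 3 experiments, which made a reversal unlikely beforehand. Over these, no alternative reversed a direction, while 773 values kept their side of the threshold and 162 lost it. Other genes given by value were not checked in this way. With 3 libraries per group, changes near 2-fold were seldom called on simulated counts, so a member without a call is not shown to be unaffected.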
